A study of Homo sapiens with 12 samples.

Results

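The genes that encode the proteins of the mitochondrial ribosome were examined in 12 RNA-seq libraries. All were made from HT-29 cells, a permanent line grown from a human colon adenocarcinoma that carries mutant APC. Members were taken by symbol, as every row of the deposited expression table named MRPL or MRPS followed by a number and at most 1 letter. This gave 78 of 25528 rows: 29 with MRPS symbols, used for the small subunit, and 49 with MRPL symbols, used for the large subunit. These 2 sets follow the symbol alone, and neither the place of each protein in the ribosome nor its membership was checked. All cells were given a lentivirus. In 2 groups the virus carried an open reading frame (ORF), either GFP as the control or CTNNB1, which encodes beta-catenin, and cells were harvested 2 days after infection. In the other 2 groups it carried a short hairpin, either the control shNT1 or shAPC, which is directed at APC, a negative regulator of beta-catenin, and cells were harvested 1 day after 2 µM doxycycline was added. Each of the 4 groups had 3 libraries. Nothing in the labels says whether the 3 were separate cultures, so the p-values measure the spread between these libraries, which may be technical. The hairpin and ORF groups differed in doxycycline, vector and harvest day together, and these cannot be told apart.

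The mitochondrial ribosome translates the few messenger RNAs encoded by mitochondrial DNA, all of which specify subunits of the respiratory chain and ATP synthase. Its ribosomal RNAs are made in the organelle, whereas all of its proteins are encoded in the nucleus, translated in the cytosol and imported. It descends from a bacterial ribosome: many of its proteins have bacterial counterparts, others exist only in mitochondria, and doxycycline, an antibiotic of bacterial ribosomes, is known to inhibit it. Promoters of nuclear genes for mitochondrial proteins are known for binding sites of ETS-family factors such as GABPA, of NRF1 and of YY1.

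Promoter windows were available from RefSeq (GRCh38.p14) for 69 of the 78 genes, each reaching from 250 bases before to 50 bases after an annotated start. A match to the ETS letters CCGGAAG on either strand was present in 30 of the 69 genes (43.5%), against 12.2% of all 27305 genes with windows of the same length and 15.1% of the 17332 of these in the expression table. The YY1 letters AAGATGGC were present in 21 genes (30.4%, against 3.52% and 4.35%), and in 16 of these 21 a match lay in the 50 bases after the start. The NRF1 letters GCGCATGC were present in 6 genes (8.7%, against 3.68% and 4.54%). At least 1 of these 3 motifs was found in 44 of the 69 genes (63.8%, against 17.6% of all genes). The GC box GGGCGG was present in 60.9% of the members, against 48.3% and 59.7%. The TATA letters TATAAA were present in 4.35%, against 14% and 12.4%, and the E-box CACGTG in 13%, against 8.77% and 10.3%. Both strands were searched, an ETS and a YY1 match can overlap because the first ends and the second begins with AAG, and a match is a description of the sequence only. The following 4 windows, 300 bases each from 5′ to 3′, are those of MRPL32 (chr7:42932126-42932425, plus strand), MRPL19 (chr2:75646533-75646832, plus strand) and MRPL45 (chr17:38296918-38297217, plus strand), whose calls after shAPC held in every alternative described below, and of MRPL51 (chr12:6493213-6493512, minus strand), which is among the most abundant members. They were chosen after the values were seen. Capitals mark ETS, NRF1 and YY1 matches.
MRPL32: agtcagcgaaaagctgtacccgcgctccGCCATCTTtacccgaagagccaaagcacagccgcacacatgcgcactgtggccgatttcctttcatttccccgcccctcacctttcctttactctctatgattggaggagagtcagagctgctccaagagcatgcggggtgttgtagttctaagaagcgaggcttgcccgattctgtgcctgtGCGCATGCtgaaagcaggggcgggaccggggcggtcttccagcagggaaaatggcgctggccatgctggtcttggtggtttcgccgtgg
MRPL19: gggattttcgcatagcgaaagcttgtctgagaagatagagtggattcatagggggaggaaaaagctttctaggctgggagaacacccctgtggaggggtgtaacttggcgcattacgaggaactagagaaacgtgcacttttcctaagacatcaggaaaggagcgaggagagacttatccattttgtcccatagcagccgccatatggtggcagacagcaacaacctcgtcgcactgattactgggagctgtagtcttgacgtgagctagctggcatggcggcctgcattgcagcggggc
MRPL45: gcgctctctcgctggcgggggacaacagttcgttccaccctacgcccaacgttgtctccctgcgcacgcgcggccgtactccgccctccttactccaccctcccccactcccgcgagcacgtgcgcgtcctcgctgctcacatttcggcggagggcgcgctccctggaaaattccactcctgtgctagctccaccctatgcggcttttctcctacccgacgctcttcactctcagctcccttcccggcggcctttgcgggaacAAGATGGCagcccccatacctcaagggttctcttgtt
MRPL51: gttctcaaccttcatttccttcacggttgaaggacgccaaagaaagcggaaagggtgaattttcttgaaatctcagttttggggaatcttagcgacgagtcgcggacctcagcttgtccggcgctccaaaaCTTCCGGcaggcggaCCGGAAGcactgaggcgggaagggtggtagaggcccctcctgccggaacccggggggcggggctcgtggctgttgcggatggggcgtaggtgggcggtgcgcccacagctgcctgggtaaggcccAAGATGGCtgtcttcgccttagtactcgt
MRPL51 held ETS matches starting at positions -119 and -104 and a YY1 match at 22 after the start. MRPL45 held a YY1 match at position 14. MRPL32 held an NRF1 match at position -39 and a YY1 match far upstream at -222, and MRPL19 held none of these letters in this window. Of MRPL32, MRPL19 and MRPL45, 1 that fell after shAPC and 1 that rose thus held a YY1 match, and 1 held none.

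Values were TPM (an expression unit scaled for transcript length and to the same total in each library), which keep no sequencing depth, so the depth behind each value is unknown. Between 14756 and 16186 genes had a TPM above 0, the fewest in shNT1 replicate 3. Epithelial markers were abundant, with EPCAM at 1400 to 1809 TPM and KRT18 at 3678 to 5721, whereas the intestinal transcription factor CDX2 was only at 0.163 to 0.875. The 9 epithelial markers summed to 9211 to 10176 TPM in shAPC, 9683 to 11325 in shNT1, 11582 to 11731 in GFP and 12801 to 12894 in CTNNB1. Of the 8 that were tested, 3 were called higher and 2 lower with CTNNB1, and 4 lower after shAPC. Of 9 markers of leukocytes, endothelium and fibroblasts, 8 stayed under 0.694 TPM in every library and CD3E was listed at 0 throughout. The ninth, the lysosomal protein gene CD68, ranged from 6.06 to 27.4 TPM and set the sum of this list, which was 27.1 to 28 in GFP, 12.7 to 14.6 in CTNNB1, 14 to 15.7 in shNT1 and 7.13 to 9.36 in shAPC. The part of these markers in the results was not tested. In bulk RNA, fewer cells with a transcript and less of it per cell cannot be told apart.

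Mitoribosomal mRNAs were listed at very unequal TPM although the proteins of a ribosome are assembled in a fixed ratio. Over the 12 libraries 77 of the 78 genes had a mean TPM of at least 1. Their median was 96.3 TPM, against 20.5 TPM for all genes that pass that level. The highest was MRPL13, a large-subunit protein with a bacterial counterpart, at 753 TPM, followed by MRPL51 at 630 and MRPL33 at 463, and these genes kept this order at the top in all 12 libraries. The lowest of the 77 were MRPS25 at 13.1 TPM and MRPS18B at 15.7. The range in TPM was thus 57.3-fold. The 3 MRPS18 paralogs, counterparts of the same bacterial protein, differed in TPM: MRPS18C averaged 98.4 TPM, MRPS18A 76 and MRPS18B 15.7. The authors' deposited table for CTNNB1 against GFP gives another order. There the mean log2 expression was 6.25 for MRPS18B, 5.3 for MRPS18C and 5.04 for MRPS18A, and 5.64 for MRPL33. Rankings between genes thus depend on the measure, and the reason was not tested. Pearson's r of log2(TPM + 1) over the 77 genes was at least 0.9875 between any 2 libraries, a value that describes genes, which are not independent, within libraries that share their processing.

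MRPS24 stood apart from all other members. It was listed at 0 in 7 libraries, and in the other 5 it lay between 0.186 and 0.536 TPM. In GENCODE v29 its exons overlap, on the same strand, those of the readthrough gene URGCP-MRPS24, which was listed at 0 in all 12 libraries. How the reads of these overlapping genes were assigned is not given in the sources used here, and no comparison was made for MRPS24.

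**Figure D1:**
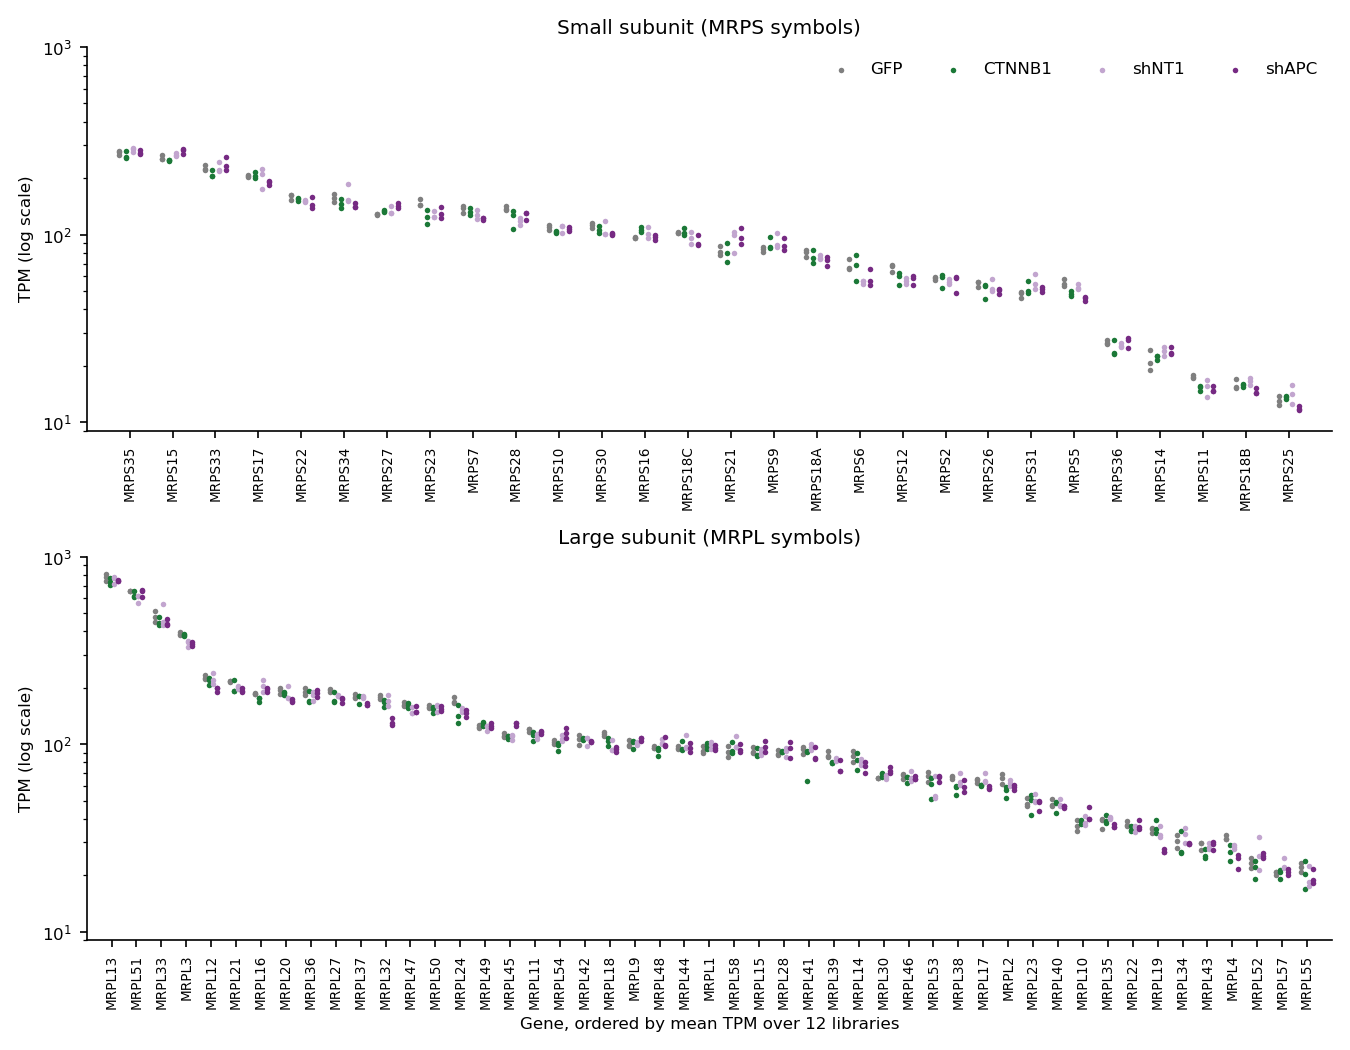
TPM (log axis) of the 77 tested mitoribosomal genes in each of the 12 libraries, coloured by group, with genes of MRPS symbols above and of MRPL symbols below, each ordered by mean. Most points of a gene lie close together, from MRPL13 at 753 TPM to MRPS25 at 13.1, and the shAPC points of MRPL32 and MRPL19 fall below the others.

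Summed over all 78 genes, mitoribosomal mRNA made up 0.913% to 0.977% of the TPM of a library. The library total holds no rows under the usual symbols of transcripts encoded by mitochondrial DNA. The sum over the 78 genes was 9774, 9699 and 9623 TPM in the GFP libraries and 9127, 9150 and 9545 in the CTNNB1 libraries. It was 9424, 9221 and 9699 in shNT1 and 9241, 9220 and 9325 in shAPC. The CTNNB1 libraries all lay below the GFP libraries, while the shNT1 and shAPC libraries overlapped. By mean level, 39 of the 77 genes were highest in GFP and 31 were lowest in shAPC, and these counts were not set against those of all genes. Replicates were close, with a median coefficient of variation over the 77 genes of 3.45% in GFP, 5.02% in CTNNB1, 4.94% in shNT1 and 3.55% in shAPC.

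Changes were small. Each comparison was fitted with limma on log2(TPM + 1) over every gene whose TPM averaged 1 or more in its libraries, and a gene was called at a Benjamini-Hochberg adjusted p under 0.05 over all of them. The filter passed 77 of the 78 genes in every comparison. No mitoribosomal gene differed by more than 0.5 on the log2 scale in any of the 4 comparisons, where 3.75% to 5.75% of all tested genes did. The median absolute difference was 0.07 for these genes after CTNNB1 and 0.07 after shAPC, against 0.12 and 0.13 for all genes. The 95% intervals of all 77 genes lay within 0.5 in both directions for CTNNB1 minus GFP, as did those of 76 for shAPC minus shNT1, where the interval of MRPL32 reached -0.51. In 53 of the 77 genes none of the 4 comparisons was called, but the matching share of all genes is not given.

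**Figure D2:**
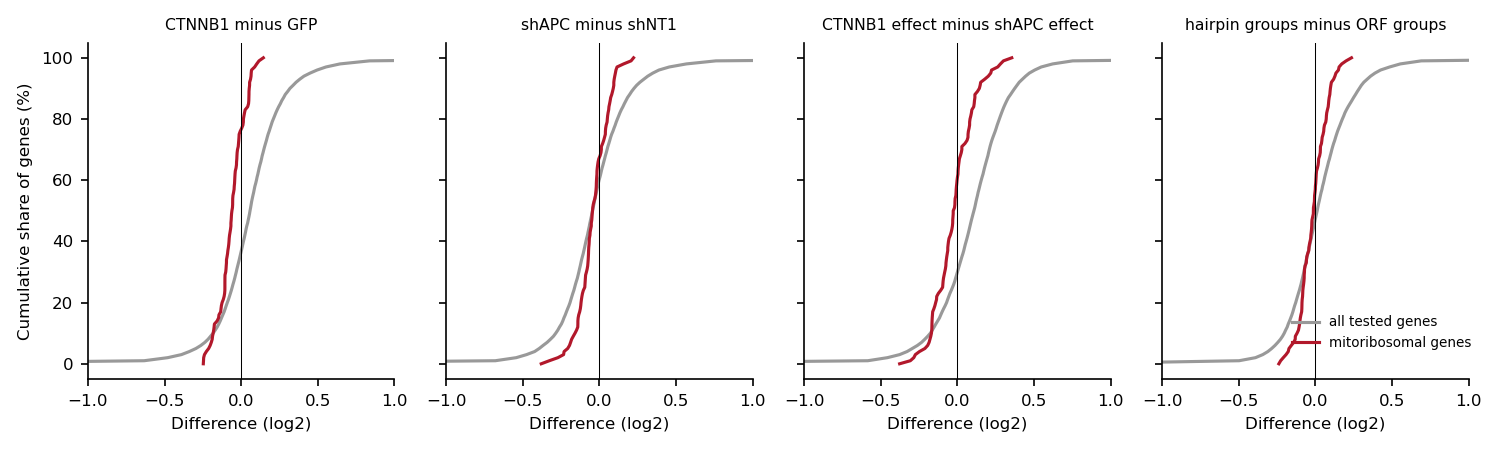
Cumulative share of genes (%) against the log2 difference in each of the 4 comparisons, for the 77 mitoribosomal genes (red) and all genes tested (grey). The red curves are steeper, with no gene beyond 0.5 in either direction, and for CTNNB1 minus GFP the red median is -0.06 where the grey one is 0.06.

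After shAPC, 3 large-subunit genes changed well beyond the spread of replicates: MRPL32 and MRPL19 fell and MRPL45 rose. In all, 1 of the 77 genes was called higher and 5 lower (6.49%), where 7.24% of the 11834 genes tested were called higher and 14.9% lower. Of these calls 1 fall was in the 28 tested genes with MRPS symbols and the others were in the 49 with MRPL symbols. The median difference was -0.04, against -0.05 for all genes, and it was 0.01 with median-ratio scaling and 0.03 with quantile normalization. With median-ratio scaling 4 members were called higher and 3 lower, where 11.5% of all genes were called higher and 12.6% lower and their median was 0.003. With quantile normalization 8 members were called higher and 2 lower, where 11.3% of all genes were called higher and 11.6% lower and their median was -0.0034.

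MRPL32, a large-subunit protein that is cut to its mature form by a protease of the inner membrane before it joins the ribosome, had 161, 169 and 184 TPM in shNT1 and 130, 127 and 137 TPM in shAPC. Every shAPC library was below every shNT1 library, and also below all GFP and CTNNB1 libraries, whose lowest value was 158.5. The log2 difference was -0.38 (SE 0.06, adjusted p = 0.0019), a decrease of 23.1%. MRPL32 lies at chr7:42932200-42948958 on the plus strand in GENCODE v29 (hg38), and its exons overlap those of the proteasome gene PSMA2 on the other strand. PSMA2 itself did not pass the test in this arm (log2 difference -0.03, adjusted p = 0.74). Whether the counting used strand is not given in the sources used here.

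MRPL19, which has a bacterial counterpart, had 33, 32 and 36.4 TPM in shNT1 and 27.7, 26.7 and 26.7 in shAPC. The groups did not overlap, and the shAPC values were again the lowest of all 12 libraries. The log2 difference was -0.31 (SE 0.06, adjusted p = 0.0071). The gene (chr2:75646783-75690851, plus strand) overlaps GCFC2 on the opposite strand, for which the difference was -0.11 (adjusted p = 0.42).

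MRPL45, a mitochondria-specific protein near the exit of the polypeptide tunnel that helps hold the ribosome at the inner membrane, moved the other way. It had 112, 111 and 105 TPM in shNT1 and 130, 124 and 130 in shAPC, and no library of the other 3 groups exceeded 115. The log2 difference was 0.22 (SE 0.05, adjusted p = 0.011). Its pseudogene MRPL45P2 was higher too, with 16, 14.7 and 14.2 TPM in shNT1 and 17.1, 20.5 and 23.8 in shAPC (log2 difference 0.41, SE 0.11, adjusted p = 0.019). Reads can be shared between a gene and its pseudogene, so the split between the 2 rows is uncertain. The authors' deposited table lists MRPL45 under ENSG00000277936, while GENCODE v29 places it on chromosome 17 as ENSG00000278845 (chr17:38297023-38323218).

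These 3 calls held under all 10 alternative settings and with each of the 6 libraries left out in turn. The other 3 calls of this arm were smaller and were lost with 4 or 5 of the 6 libraries left out one at a time, among them shNT1 replicate 1, shAPC replicate 2 and shAPC replicate 3 for all 3 genes. MRPL12, which forms the stalk of the large subunit, had 219, 210 and 239 TPM in shNT1 and 199, 199 and 190 in shAPC, and differed by -0.18 (SE 0.06, adjusted p = 0.047). MRPL4 and MRPS5, both with bacterial counterparts, differed by -0.23 (SE 0.07, adjusted p = 0.041) and -0.2 (SE 0.05, adjusted p = 0.026). In each of the 3 genes the highest shAPC library lay below the lowest shNT1 library.

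**Figure D3:**
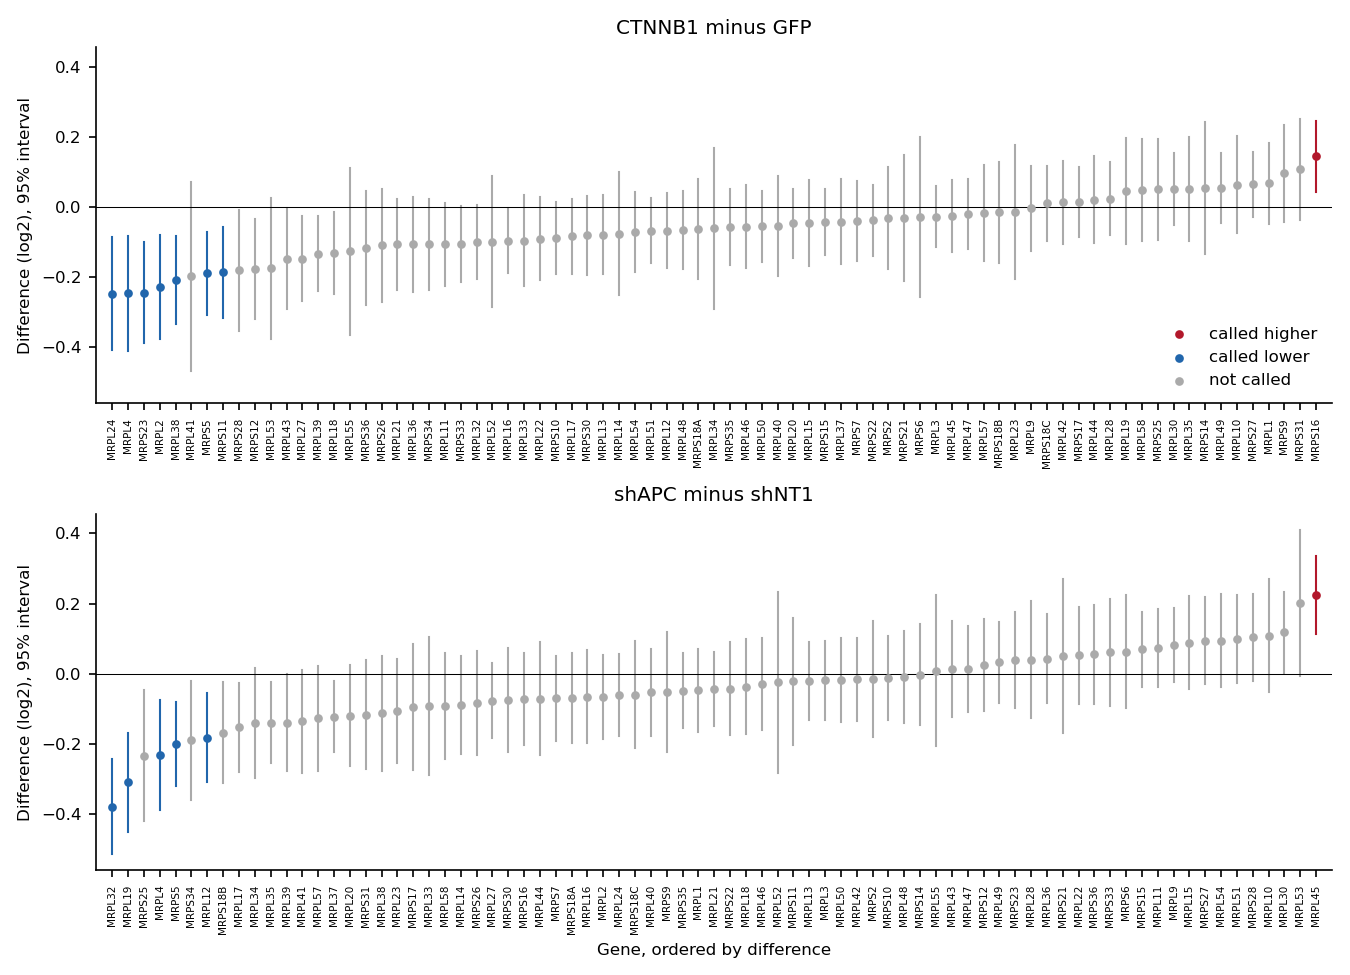
Log2 difference of each of the 77 mitoribosomal genes with its 95% interval, ordered by size, for CTNNB1 minus GFP (above) and shAPC minus shNT1 (below). Called genes are red (higher) or blue (lower): 1 and 7 above, 1 and 5 below, with MRPL32 at -0.38 and MRPL45 at 0.22 at the ends of the lower panel.

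With CTNNB1, most mitoribosomal genes lay slightly below their GFP level. The difference was negative in 59 of 77 genes and positive in 18, with a median of -0.06, while 63.1% of all tested genes had a positive difference and their median was 0.06. With median-ratio scaling the members' median was -0.12 and that of all genes 0.00, so the gap between the medians was close to the same. In the fit, 1 gene was called higher and 7 lower (9.09%), where 16.3% of 11624 genes were called higher and 7.16% lower. With median-ratio scaling 0 were called higher (0 at an unadjusted p under 0.05 in limma) and 15 lower, where 11.6% of all genes were called higher and 11.9% lower. With a GC trend removed 1 was called higher and 14 lower, where 23.1% of all genes were called higher and 9.98% lower. Mitoribosomal transcripts are short, with a median of 1035 bases against 1730.5 for all genes, and the log2 difference had a Spearman rho of 0.152 with transcript length across genes. With the length trend removed the median was -0.04, 7 members were called lower, and the median of all genes was 0.06.

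The small-subunit genes called lower were MRPS23, MRPS5 and MRPS11, and those of the large subunit were MRPL24, MRPL4, MRPL2 and MRPL38. MRPL24 had 167, 166 and 178 TPM in GFP and 130, 141 and 161 in CTNNB1, a log2 difference of -0.25 (SE 0.07, adjusted p = 0.035). MRPS23, a mitochondria-specific protein, had 155, 144 and 144 TPM in GFP and 124, 114 and 136 in CTNNB1 (log2 difference -0.24, SE 0.06, adjusted p = 0.023). In both genes the CTNNB1 libraries spread widely and lay below all GFP libraries.

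MRPL4 had 31.1, 31.1 and 32.6 TPM in GFP and 23.9, 26.7 and 29.1 in CTNNB1 (log2 difference -0.25, adjusted p = 0.037). MRPL2, the counterpart of a protein at the catalytic centre of the bacterial ribosome, differed by -0.23 (adjusted p = 0.034), and the mitochondria-specific MRPL38 by -0.21 (adjusted p = 0.025). MRPS5 and MRPS11 differed by -0.19 each (adjusted p = 0.03 and 0.043). The CTNNB1 libraries were below the GFP libraries without overlap in all of these genes.

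MRPS16, a small-subunit protein with a bacterial counterpart, was the gene called higher. It had 96.7, 95.4 and 95.7 TPM in GFP and 103, 110 and 105 in CTNNB1 (log2 difference 0.14, SE 0.05, adjusted p = 0.046). Its exons overlap those of DNAJC9, for which the difference was 0.14 (adjusted p = 0.072). The call was lost in 5 of 10 alternative settings.

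The calls of this arm depended on single libraries. Without GFP replicate 2, GFP replicate 3 or CTNNB1 replicate 2, limma called 0 members lower, and without GFP replicate 1 it called 1, while 8 to 10 members had an unadjusted p under 0.05 in these fits. Without CTNNB1 replicate 1 or replicate 3, 9 members were called lower. The shares of all genes called in these 6 fits are not given, so the counts describe the members only. The median remained negative in all 6 fits, between -0.08 and -0.03. CTNNB1 replicate 1 lay lowest for these genes, with a median deviation of -0.04 from its group mean where that of all genes was 0.04.

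MRPL4 and MRPS5 were the members called lower in both arms, 10 were called in 1 arm, 65 in neither and 0 in opposite directions. Such counts over all genes are not given, so these describe the members only. In the authors' deposited limma tables MRPL4 was called in neither arm (adjusted p = 0.081 with CTNNB1 and 0.064 after shAPC). There MRPS5 was called lower with CTNNB1 (adjusted p = 0.0053) but not called after shAPC (adjusted p = 0.093). MRPL4 averaged 31.6 ± 0.9 TPM in GFP and 26.6 ± 2.6 in CTNNB1 (SD, n = 3 each). It averaged 28.3 ± 0.7 in shNT1 and 24 ± 2.1 in shAPC. MRPS5 averaged 55.4 ± 2.6 TPM in GFP, 48.4 ± 1.3 in CTNNB1, 52.5 ± 1.7 in shNT1 and 45.6 ± 1.4 in shAPC. The drop was thus of similar size in each arm for both genes, with 95% intervals of -0.41 to -0.08 and -0.39 to -0.07 for MRPL4 and of -0.31 to -0.07 and -0.32 to -0.08 for MRPS5.

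The difference between the arms was tested directly, by subtracting the log2 difference of the shAPC arm from that of the CTNNB1 arm in a fit of all 12 libraries. It was called for 3 members, 2 higher and 1 lower, where 13.3% of 11741 genes were called higher and 2.76% lower. MRPL19 differed by 0.36 (SE 0.09, adjusted p = 0.022), since its difference was 0.05 with CTNNB1. MRPL32 differed by 0.28 (SE 0.08, adjusted p = 0.027), with -0.1 after CTNNB1 and an adjusted p of 0.15 there. In the authors' deposited table MRPL32 was called lower with CTNNB1 as well (-0.18, adjusted p = 0.034). PSMA2, whose exons overlap those of MRPL32, was called lower with CTNNB1 in the fit on TPM (-0.45, adjusted p = 6.2e-05). For the difference between arms PSMA2 was called lower (-0.42, adjusted p = 0.0016), the direction opposite to MRPL32. The part of this overlap in the MRPL32 values was not tested. The MRPL32 call for the difference between arms was lost with median-ratio scaling, with quantile normalization and without a variance trend. MRPL45 differed by -0.25 (SE 0.06, adjusted p = 0.018), with -0.03 after CTNNB1. The median over the 77 genes was -0.03 and over all genes 0.11, but the latter was 0.00 with median-ratio scaling, which put the members at -0.14 and called 1 higher and 5 lower, where 6.75% of all genes were called higher and 5.54% lower.

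**Figure D4:**
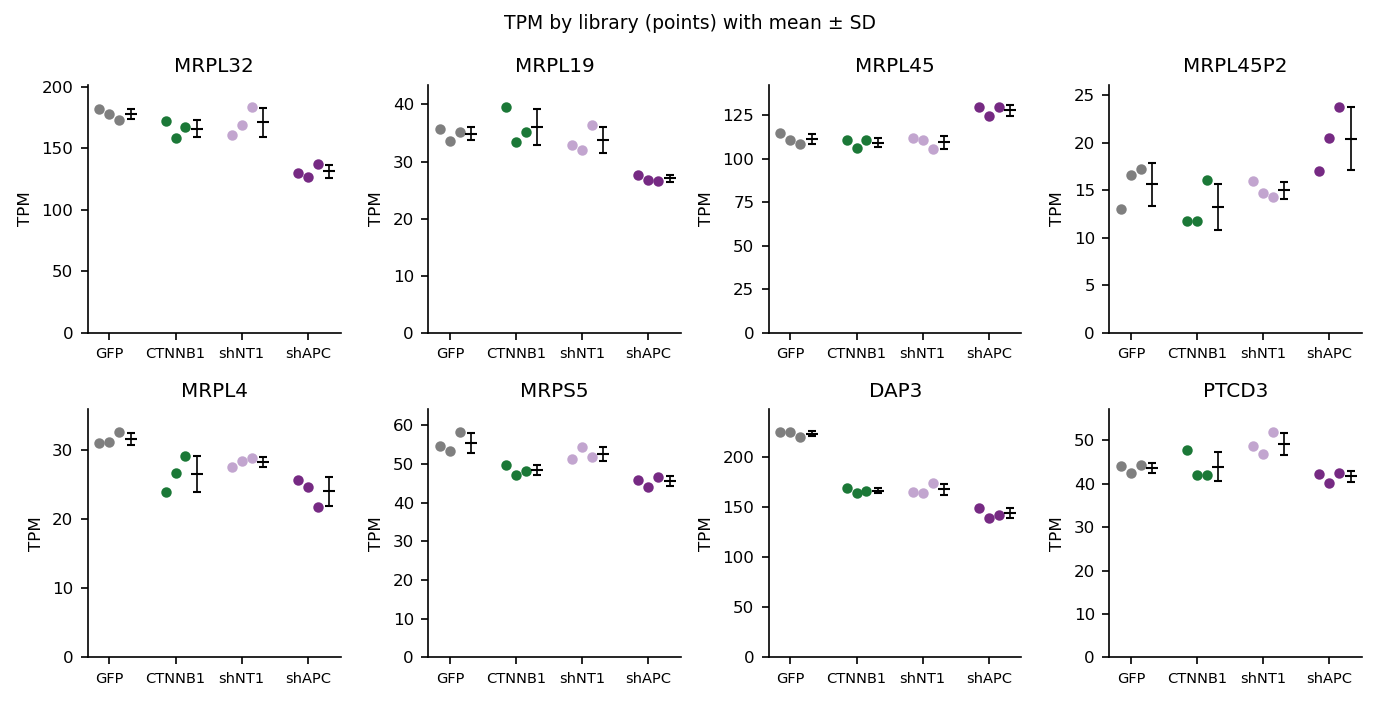
TPM in each library (points, 3 per group) with the group mean ± SD (bars) for the members called most firmly after shAPC, the pseudogene MRPL45P2, the 2 members called lower in both arms, and the mitoribosomal genes DAP3 and PTCD3. The shAPC libraries stand below all others for MRPL32 and MRPL19 and above all others for MRPL45, and DAP3 is highest in the GFP libraries.

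In the hairpin groups, which alone received doxycycline, mitoribosomal mRNAs were neither uniformly higher nor lower than in the ORF groups. The mean of shNT1 and shAPC was compared with that of GFP and CTNNB1. The test called 6 members higher (7.79%) and 10 lower (13%), where 21.7% of 11741 genes were called higher and 19.5% lower. The members' median was -0.01 and that of all genes 0.01. Quantile normalization turned the balance, with 14 members called higher and 6 lower and a median of 0.04. Under it 19.4% of all genes were called higher and 20.9% lower, with a median of -0.01.

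In 3 genes the 6 hairpin libraries did not overlap the 6 ORF libraries. The share of all tested genes that did so is not given, so this count describes these genes only. MRPL3, the counterpart of a bacterial protein that reaches toward the peptidyl transferase centre, had 379 to 396 TPM in the ORF libraries (medians of 389 in GFP and 383 in CTNNB1) and 330 to 356 in the hairpin libraries (349 and 340.5). Its log2 difference was -0.17 (SE 0.03, adjusted p = 0.0004). It was called lower for shNT1 against GFP (-0.18, adjusted p = 0.011) as well as for shAPC against CTNNB1 (-0.17, adjusted p = 0.035). MRPL16 ran the other way, with 169 to 186 TPM in the ORF libraries and 190 to 220 in the hairpin libraries (log2 difference 0.16, SE 0.04, adjusted p = 0.0034). MRPL48, a mitochondria-specific protein, had 86.9 to 97.2 TPM in the ORF and 98.1 to 110 in the hairpin libraries (0.13, SE 0.04, adjusted p = 0.017).

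Among the other genes called higher, MRPS21 differed by 0.24, MRPL54 by 0.15 and MRPS15 by 0.1, and their ranges overlapped. Among those called lower, MRPS6 differed by -0.24, MRPL18 by -0.18, MRPS12 and MRPS18C by -0.13 each, MRPS7 by -0.11 and MRPL47 by -0.1. MRPS6 had 54.6 to 56.8 TPM in shNT1, below all GFP libraries (65.6 to 74.1), whereas shAPC (54.1 to 65.9) and CTNNB1 (56.6 to 77.7) overlapped. Its exons overlap those of SLC5A3 on the same strand.

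MRPL32, MRPL19, MRPL4 and MRPL45 also differed between the sets (-0.2, -0.22, -0.15 and 0.1). PSMA2, which overlaps MRPL32, was lower too (-0.38, adjusted p = 2.3e-06). For MRPL32, MRPL19 and MRPL45 only the comparison of shAPC with CTNNB1 was called. Between shNT1 and GFP they differed by -0.06, -0.05 and -0.02 (adjusted p = 0.42, 0.57 and 0.68), and between shAPC and CTNNB1 by -0.34, -0.4 and 0.22 (adjusted p = 0.0022, 0.0028 and 0.013). MRPL4 was lower in shNT1 than in GFP (-0.15, adjusted p = 0.03). Over all members, shNT1 minus GFP called 1 higher and 9 lower, where 23.2% of 11659 genes were called higher and 9.92% lower. The comparison of shAPC with CTNNB1 called 5 higher and 3 lower, where 9.05% of 11788 genes were called higher and 16.2% lower.

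**Figure D5:**
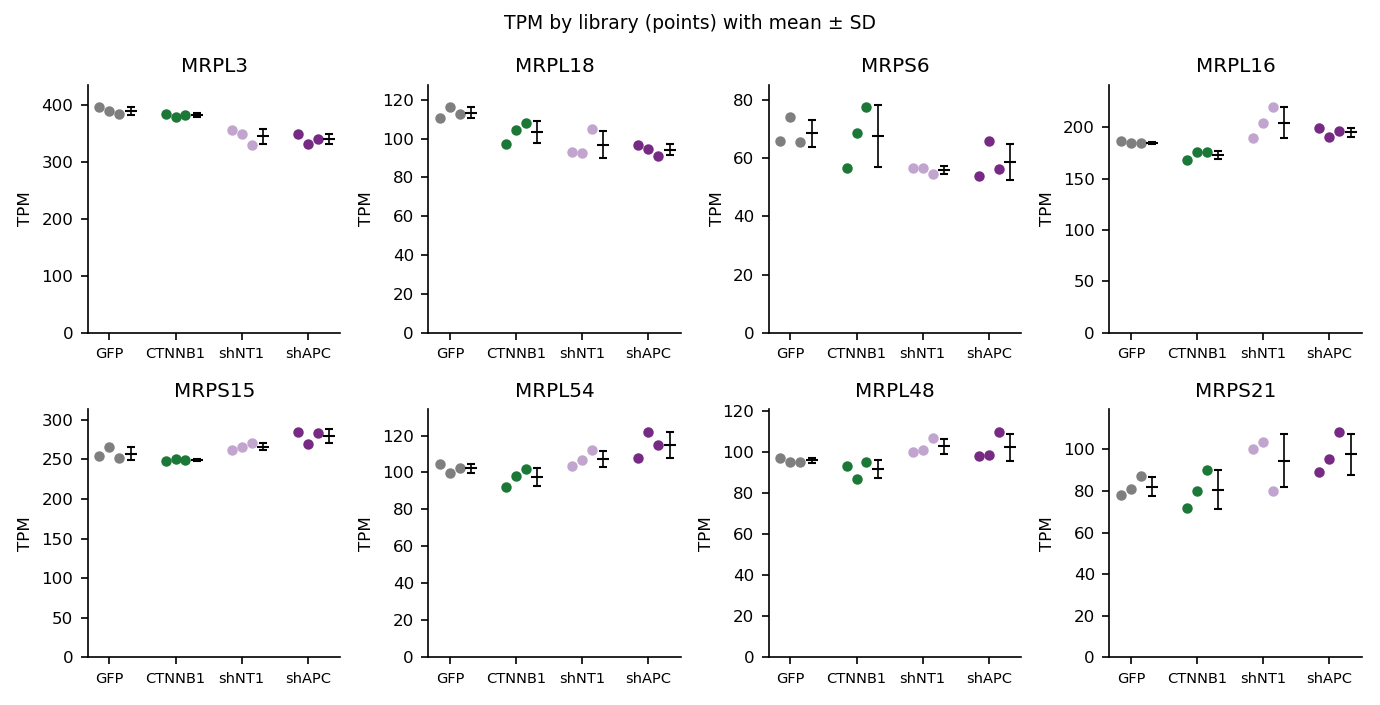
TPM in each library (points, 3 per group) with the group mean ± SD (bars) for 8 members called between the hairpin groups (shNT1, shAPC) and the ORF groups (GFP, CTNNB1). MRPL3 is lower and MRPL16 and MRPL48 are higher in all 6 hairpin libraries, while the ranges of the other 5 overlap.

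Of 5 further proteins of the mitochondrial ribosome that carry other symbols and so fall outside the rule, DAP3 showed a larger drop than any MRPL or MRPS gene with CTNNB1. DAP3, a GTP-binding protein of the small subunit, had 225, 225 and 220 TPM in GFP and 169, 164 and 166 in CTNNB1, with a log2 difference of -0.42 (SE 0.04, adjusted p = 1e-04). In shNT1 it had 165, 164 and 174 TPM and in shAPC 149, 139 and 142, with a difference of -0.22 (SE 0.05, adjusted p = 0.013). The GFP libraries stood above the other 9. The drop was larger with CTNNB1 than with shAPC by 0.2 on the log2 scale (SE 0.06, adjusted p = 0.037), but this call for the difference between arms was lost with 9 of the 12 libraries left out in turn (all but CTNNB1 replicate 1, shNT1 replicate 3 and shAPC replicate 2), without a variance trend and with the length trend removed. DAP3 was also lower in shNT1 than in GFP (-0.41, adjusted p = 0.00017). PTCD3, an RNA-binding protein of the small subunit, fell after shAPC, from 48.7, 46.8 and 52 TPM to 42.3, 40.2 and 42.6 (-0.23, SE 0.06, adjusted p = 0.019), and differed by 0.01 with CTNNB1. This call was lost without shNT1 replicate 1 (adjusted p = 0.055) or shAPC replicate 2 (0.072), and that of DAP3 after shAPC without shAPC replicate 2 (0.052). CHCHD1, AURKAIP1 and GADD45GIP1 were called in neither arm (log2 differences -0.05, -0.17 and -0.28 with CTNNB1 and 0.06, -0.07 and -0.05 after shAPC).

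Genes that build or serve the mitochondrial ribosome were sparsely affected by CTNNB1. Of 26 assembly and rRNA modification factors, limma called 0 in either direction (1 higher and 1 lower at an unadjusted p under 0.05), and the same held for 15 translation factors (1 and 1). Of 19 aminoacyl-tRNA synthetases serving mitochondria, 4 rose (21.1%, where 16.3% of all genes were called higher), HARS2 most (0.23, SE 0.06, adjusted p = 0.018), and 0 fell (0 unadjusted). Of 10 genes of mitochondrial DNA expression, TFAM, which packages and helps transcribe that DNA, rose (0.3, SE 0.08, adjusted p = 0.024). Of 12 tested transcription regulators of nuclear mitochondrial genes, the nuclear receptor gene ESRRA fell (-0.26, SE 0.07, adjusted p = 0.018). Of 11 mitochondrial chaperones and proteases 2 fell (18.2%, where 7.16% of all genes were called lower), HSPA9 most (-0.19, SE 0.06, adjusted p = 0.036). The calls for HARS2, TFAM and ESRRA were each lost without GFP replicate 1, 2 or 3, and that for HSPA9 without any of these and without CTNNB1 replicate 2 or 3.

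After shAPC the calls in these lists were mostly downward, as they were over all genes, of which 14.9% were called lower and 7.24% higher. Among assembly factors NOA1, a GTPase needed for the small subunit, rose (0.18, SE 0.05, adjusted p = 0.032) and MRM2, a methyltransferase of the large ribosomal RNA, fell (-0.25, SE 0.07, adjusted p = 0.025). The NOA1 call was lost with each of the 6 libraries left out in turn, and that for MRM2 without shAPC replicate 2 or 3 and in 4 of 10 settings. Of the 15 translation factors 2 fell (13.3%), the elongation factor gene GFM1 from 81.2, 80.3 and 84.7 TPM to 64.8, 61.8 and 61.1 (-0.39, SE 0.05, adjusted p = 0.00075) without overlap. Of the 19 synthetases 4 fell (21.1%), GARS most (-0.28, SE 0.06, adjusted p = 0.011), and WARS2 rose (0.2, SE 0.06, adjusted p = 0.035). GARS, which also serves the cytosol, kept its call with each library left out, while WARS2 kept it only without shNT1 replicate 1. Of the mitochondrial DNA genes 2 of 10 fell (20%), POLG2 most (-0.28, SE 0.07, adjusted p = 0.026), and of the chaperones and proteases 2 of 11 (18.2%), AFG3L2 most. The POLG2 call was lost without shNT1 replicate 2 or any shAPC library. AFG3L2, a subunit of the protease that matures MRPL32, differed by -0.22 (SE 0.07, adjusted p = 0.039), but this call was lost in 4 of 10 settings and without shNT1 replicate 1 or 3 or shAPC replicate 2 or 3.

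Of the 12 regulators 5 fell after shAPC (41.7%, where 14.9% of all genes were called lower) and 0 rose (0 unadjusted). PPARGC1B, a coactivator of mitochondrial biogenesis, had 3.15, 3.2 and 3.68 TPM in shNT1 and 2.32, 2.21 and 1.96 in shAPC (-0.46, SE 0.1, adjusted p = 0.012). YY1 had 102, 100.1 and 119.5 TPM in shNT1 and 95, 84.2 and 84.8 in shAPC (-0.28, SE 0.08, adjusted p = 0.028). The PPARGC1B call was lost without shAPC replicate 3, and the YY1 call without shNT1 replicate 3 or shAPC replicate 2 or 3. YY1 was singled out after its values were seen, since its letters occur in the promoters above. The 20 tested members with a YY1 match had a median difference of -0.02 after shAPC, with 1 called higher and 1 lower, and the 48 without one had -0.06, with 0 higher and 4 lower. GABPA and NRF1 differed by -0.03 and 0.07 (adjusted p = 0.8 and 0.55).

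Between the hairpin and ORF groups, 1 of the 12 tested regulators was called higher and 7 lower (58.3%, where 19.5% of all genes were called lower). The 1 called higher was ATF4, a transcription factor of the stress response that mitochondrial translation defects are known to trigger. ATF4 was higher in all 6 hairpin libraries. It had 246 to 250 TPM in GFP and 237 to 253 in CTNNB1, and 293 to 337 in shNT1 and 269 to 308 in shAPC (0.3, SE 0.04, adjusted p = 7.7e-05). The related ATF5 was lower, with 27.1 to 28.3 TPM in GFP, 23.4 to 26.1 in CTNNB1, 21.8 to 24.2 in shNT1 and 19.6 to 20.8 in shAPC (-0.27, SE 0.04, adjusted p = 0.00016). The chaperone gene HSPA9 was lower too (-0.14, SE 0.04, adjusted p = 0.015). ATF4 and ATF5 were named after their values were seen. Of 13 mRNAs and 2 ribosomal RNAs encoded by mitochondrial DNA, 0 were listed in the expression table under their usual symbols. These transcripts were therefore not analysed here.

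In the authors' deposited tables all 78 members were listed. For CTNNB1 against GFP these tables give 0 members higher and 5 lower at an adjusted p under 0.05. At that level 4.82% of all 28008 rows were higher and 4.6% lower. Of the 5 members, MRPS5, MRPS11 and MRPS23 were also called lower in the fit on TPM. The others were MRPL32 (-0.18, adjusted p = 0.034) and MRPL39 (-0.21, adjusted p = 0.038). In the fit on TPM these differed by -0.1 and -0.13 and were not called. The median log2 fold change of the members in the authors' deposited table is -0.14, against -0.01 for the genes tested here. For shAPC against shNT1 the authors' deposited table gives 3 members higher and 2 lower, where 4.11% of all rows were higher and 4.9% lower. These members include MRPL45 (0.26, adjusted p = 0.03), MRPL19 (-0.28, adjusted p = 0.0099) and MRPL32 (-0.34, adjusted p = 0.022), beside MRPS27 (0.14, adjusted p = 0.023) and MRPL9 (0.12, adjusted p = 0.04). The latter 2 differed by 0.09 and 0.08 in the fit on TPM without passing the test. Of the members called in the fit on TPM, 5 with CTNNB1 and 3 after shAPC were not called by the authors.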

How the data were processed

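RNA-seq of 12 HT-29 libraries was used, in 4 groups of 3 taken from the sample labels. The authors deposited TPM, and per the submitters' processing notes the tools include STAR 2.7.3a and limma and the build is hg38. The quantifier, annotation and strand setting are not given in the sources used here. The authors also deposited limma tables that hold log2 fold changes and p-values, with a log-odds score that was not used, per the file headers. No other column of per-sample values was left out (0).

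The values were taken as log2(TPM + 1). For each comparison, genes whose TPM averaged 1 or more over its libraries were fitted using R 4.3.3 and limma 3.58.1 with a variance trend and Benjamini-Hochberg adjustment over all genes. Because 1 is added, changes of low genes are understated. The fits were tested on simulated data. TPM keeps no depth, so no count model, interval of counts or detection limit was used.

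Members and gene lists were chosen with earlier results of these data known. Named members were the 8 largest called rises and falls per comparison, members called in both arms, the 3 highest and 3 lowest levels and the MRPS18 paralogs, with the largest called rise and fall of each other list per arm. Other genes named were chosen after their values were seen. Gene positions and transcript lengths came from GENCODE v29, which holds all 78 members by symbol, and promoters from RefSeq. In GENCODE v29, 34 members have a named pseudogene, 16 overlap exons of another gene on the same strand and 29 on the opposite strand, and 20 have none of these. Alternatives were another pseudocount, no or a stricter filter, median-ratio and quantile scaling, no variance trend, a replicate block, removal of a length or GC trend, a joint fit, group pairs and leaving out each library.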

Additional observations from a re-analysis of the deposited data

Results flagged for a closer look

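The effects of CTNNB1 and shAPC differed, by limma's direct test of the first minus the second, for 3 mitoribosomal genes. On the log2 scale MRPL19 differed by 0.355 and MRPL32 by 0.2788, both lower after shAPC, and MRPL45 by -0.2491, higher after shAPC. With libraries left out in turn, the call for MRPL19 was lost without GFP replicate 2 or shAPC replicate 3, that for MRPL45 without GFP replicate 1, and that for MRPL32 without GFP replicate 2, GFP replicate 3, shNT1 replicate 3 or shAPC replicate 2. The MRPL32 call was also lost with median-ratio scaling, with quantile normalization and without a variance trend. Those of MRPL19 and MRPL45 held in all 9 settings.

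Among the related genes, DAP3 differed by -0.2015, having fallen more with CTNNB1. The difference was 0.2882 for MRM2, 0.2631 for GFM1, 0.2778 for GARS, 0.3598 for YY1, 0.448 for PPARGC1B and 0.2978 for AFG3L2, each of which fell after shAPC and was not called with CTNNB1. For all genes tested the median of this difference was 0.11, and with median-ratio scaling, where it was 0.00, DAP3 and PPARGC1B kept their calls while those of MRM2, GFM1, GARS, YY1 and AFG3L2 were lost. With each of the 12 libraries left out in turn, all 7 calls depended on single libraries. The DAP3 call was lost in 9 of these 12 fits, and also without a variance trend and with the length trend removed. The PPARGC1B call was lost in 5 of the 12 (without GFP replicate 1, GFP replicate 2, CTNNB1 replicate 1, shNT1 replicate 3 or shAPC replicate 3). The calls were lost in 7 fits for MRM2, 5 for GFM1 and 6 each for GARS, YY1 and AFG3L2.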

How the results depend on the processing

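Under median-ratio scaling, 0 members were called higher with CTNNB1 (0 at an unadjusted p under 0.05) and 15 lower with a median of -0.12. There were 4 higher and 3 lower after shAPC, and 1 higher and 5 lower with a median of -0.14 for the difference of effects. Quantile normalization gave 0 higher with CTNNB1 (1 unadjusted). It gave 8 higher and 2 lower with a median of 0.0324 after shAPC, 1 and 4 with -0.12 for the difference of effects, and 14 and 6 with 0.0388 for hairpin minus ORF groups. Without a variance trend 0 members were higher (1 unadjusted) and 2 lower with CTNNB1, 3 lower after shAPC and 1 higher for the difference of effects. Without a filter 2 were lower with CTNNB1. With a GC trend removed 14 were lower with CTNNB1 and 3 for the difference of effects, and with a mean TPM of at least 5 the latter was 2. In a fit of all 4 groups 0 were higher with CTNNB1 (1 unadjusted). For shNT1 minus GFP alone 1 member was higher, and for shAPC minus CTNNB1 alone 3 were lower. There MRPL45 (-0.0247) and PPARGC1B (0.0461), both for shNT1 minus GFP, had the opposite sign of the hairpin minus ORF difference. The cause of these shifts was not tested. Shares of all genes called are given above for some of these settings and not for the others, so the counts here describe the members only.

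The labels do not say what a replicate number stands for. Same-numbered deviations correlated at 0.209, 0.076 and 0.121 in the CTNNB1 arm, where differently numbered ones ranged from -0.195 to 0.076. In the shAPC arm they correlated at -0.138, 0.002 and -0.21, where differently numbered ones ranged from -0.134 to 0.206. Whether the numbers pair the CTNNB1 and GFP libraries is thus not settled. With the replicate block, 0 members were higher with CTNNB1 (1 unadjusted) and 7 lower, and 1 was higher and 2 lower after shAPC.

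With 1 library left out at a time, members called with CTNNB1 ranged from 0 to 1 higher and 0 to 9 lower (median -0.0826 to -0.0328). After shAPC they ranged from 1 to 2 higher and 2 to 4 lower (median -0.0661 to -0.0093). For the difference of effects they ranged from 0 to 4 in each direction (median -0.0522 to -0.0091). For hairpin minus ORF groups they ranged from 5 to 7 higher and 5 to 15 lower (median -0.0283 to -0.0001). The shares of all genes called in these fits are not given, so shifts of the members and of all genes cannot be told apart. Over 28 named members and all alternatives, 1957 of 2128 values kept direction and side of the threshold, 130 lost a call, 40 gained one and 1 reversed. With 3 libraries a group and unknown depth, differences under about the median 95% half-width of 0.12 to 0.13 per arm could not be resolved. Over 17 genes of the other lists, 1101 of 1288 values kept direction and side, 160 lost a call, 26 gained one and 1 reversed.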
